A study of Mus musculus with 9 samples.

Results

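Cd80 and 7 other genes of immune surface proteins were followed in immortalized mouse embryonic fibroblasts after knockdown of RPA1 or HSF1. The genes were Cd80, Cd86, Cd274, Pdcd1lg2, Cd40, Icam1, Vcam1 and C3ar1. All 8 had a probe set with a single gene symbol, among 19938 genes measured. For a gene with several probe sets the one with the highest mean signal over the 9 arrays was kept, which applied only to Cd80. The list was chosen by name with the log2 differences on these same arrays known, starting from the high Cd80 signal under RPA1 shRNA. P-values of members come from those same arrays, so they describe the list and are no independent support. Cd80 is among the 10 largest rises of all called genes in RPA1 shRNA over control and over HSF1 shRNA, and C3ar1 among the 10 largest in HSF1 shRNA over control, so those differences are given as a description, without a test.

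The groups were 3 arrays of fibroblasts given an adenovirus with an shRNA against RPA1, 3 with an shRNA against HSF1 and 3 with a scrambled control shRNA. All cells were of the ICR background, all carried the virus (2 h of exposure and 70 h of further culture), and all were grown in 10% fetal bovine serum. Every value is therefore one of virus-infected cells. RPA1 is the large subunit of the complex that binds single-stranded DNA, HSF1 is the main heat shock transcription factor, and the study asked about gene control by a complex of the 2 proteins. Whether arrays of 1 group were separate cultures is not given in the labels, so the p-values measure only the spread between these samples.

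CD80 and CD86 are ligands that antigen-presenting cells show to T cells, where they bind the activating receptor CD28 and the inhibitory receptor CTLA4. CD274, also called PD-L1, and PDCD1LG2, also called PD-L2, bind the inhibitory receptor PD-1. CD40 is a receptor of the TNF receptor family that signals to NF-kB, ICAM1 and VCAM1 are adhesion molecules that hold leukocyte integrins, and C3AR1 is the receptor for the complement fragment C3a. Fibroblasts are known to carry ICAM1, VCAM1, CD40 and CD274 and to raise them in response to inflammatory cytokines.

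Start site sequences were looked up because the signals of the members moved unequally. This held even for Cd274 and the dim Pdcd1lg2, neighbours on chromosome 19 with 0 protein-coding genes between them. RefSeq windows (GRCm38.p6) that run from 250 bases before to 50 bases after the gene start matched 5 of the 8 genes. They are printed 5' to 3' on the strand of the gene, and capitals mark matches to the motifs searched.
Cd80, chr16:38458683-38458982, plus strand: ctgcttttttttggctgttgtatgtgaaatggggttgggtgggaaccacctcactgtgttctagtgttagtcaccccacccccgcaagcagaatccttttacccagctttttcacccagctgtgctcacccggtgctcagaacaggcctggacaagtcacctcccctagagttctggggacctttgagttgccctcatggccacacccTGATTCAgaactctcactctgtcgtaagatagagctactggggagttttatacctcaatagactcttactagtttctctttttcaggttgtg
C3ar1, chr6:122856108-122856407, minus strand: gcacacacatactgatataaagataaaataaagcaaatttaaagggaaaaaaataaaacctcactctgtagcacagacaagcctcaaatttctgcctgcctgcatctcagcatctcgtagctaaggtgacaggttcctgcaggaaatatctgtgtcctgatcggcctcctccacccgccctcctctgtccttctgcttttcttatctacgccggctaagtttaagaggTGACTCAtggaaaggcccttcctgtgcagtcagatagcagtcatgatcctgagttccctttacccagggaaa
Icam1, chr9:21015690-21015989, plus strand: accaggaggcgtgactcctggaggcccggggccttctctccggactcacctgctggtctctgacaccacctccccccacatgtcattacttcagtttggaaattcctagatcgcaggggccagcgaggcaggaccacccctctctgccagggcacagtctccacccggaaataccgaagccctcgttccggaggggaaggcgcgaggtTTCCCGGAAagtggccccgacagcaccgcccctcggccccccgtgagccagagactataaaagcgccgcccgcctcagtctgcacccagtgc
Cd274, chr19:29367188-29367487, plus strand: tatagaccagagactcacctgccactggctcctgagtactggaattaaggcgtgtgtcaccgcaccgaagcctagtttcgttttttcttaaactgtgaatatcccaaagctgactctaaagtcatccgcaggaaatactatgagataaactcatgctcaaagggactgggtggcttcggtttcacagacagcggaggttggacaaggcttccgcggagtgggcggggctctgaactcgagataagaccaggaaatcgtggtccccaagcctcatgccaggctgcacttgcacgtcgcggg
Pdcd1lg2, chr19:29410669-29410968, plus strand: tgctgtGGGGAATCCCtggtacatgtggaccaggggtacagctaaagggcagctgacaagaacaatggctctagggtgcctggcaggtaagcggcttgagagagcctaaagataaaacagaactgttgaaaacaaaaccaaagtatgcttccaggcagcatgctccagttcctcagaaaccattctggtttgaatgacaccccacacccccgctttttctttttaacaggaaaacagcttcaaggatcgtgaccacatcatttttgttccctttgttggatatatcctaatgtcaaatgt

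The motifs searched on both strands were the kappa B consensus, the interferon-stimulated response element core (GAAA, any 2 bases, GAAA), the gamma-activated site TTCNNNGAA, the AP-1 site TGANTCA and the pair of heat shock units GAANNTTC or TTCNNGAA. The capitals in Cd80 and in C3ar1 are AP-1 sites, TGATTCA at -42 to -36 and TGACTCA at -22 to -16, counted from the gene start with the first transcribed base as 1. An AP-1 site was in 7.81% of all 32851 windows of this length. Icam1 held a gamma-activated site, TTCCCGGAA at -42 to -34, a motif in 8.3% of windows, and Pdcd1lg2 a kappa B match, GGGGAATCCC at -244 to -235, a motif in 8.46%. The interferon element was in 3.44% and the heat shock pair in 15.1% of windows, and neither was in the 5 windows shown. The window of Cd274 held no match. The kappa B letters were GGGRNNYYCC, with R for A or G, Y for C or T and N for any base. A kappa B site that departs from these letters was not marked. The Icam1 window holds tggaaattcc, which differs from them in its first base. All 4 matches read the same motif on both strands. A match describes letters in the window, and binding was not measured.

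The knockdown label of RPA1 was borne out by Rpa1 itself, which read 9.42, 9.34 and 9.40 in RPA1 shRNA arrays against 11.40, 11.42 and 11.41 in control arrays, on the log2 scale. Hsf1 was not analysed here, and the HSF1 label has no such check. Fibroblast identity was checked by 9 markers, whose mean log2 signal lay between 10.85 and 11.04 in RPA1 shRNA arrays, 11.35 and 11.46 in HSF1 shRNA arrays and 11.48 and 11.52 in control arrays. Under RPA1 shRNA 6 of them fell, among them Pdgfra and Col1a2, beside 14.7% of all genes. Under HSF1 shRNA 3 fell and 1 rose, beside 6.21% and 9.89% of all genes. The HSF1 shRNA counts were 1 fall without control array 1, and 5 falls and 2 rises without RPA1 shRNA array 3. In those fits 10.1% and 23.6% of all genes were called under HSF1 shRNA. RPA1 shRNA array 3 differed from arrays 1 and 2. Where the mean of arrays 1 and 2 was 2-fold or more away from control (506 genes), array 3 had a median of 0.675 times that difference. The same ratio, each array set against the other pair, was 1.08 for array 1 (352 genes) and 1.06 for array 2 (335 genes). Values without it are given where a call of a member changes and for the larger shifts in its differences. In whole-culture RNA a change in the share of cells that express a gene and a change in RNA per cell cannot be told apart.

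**Figure D1:**
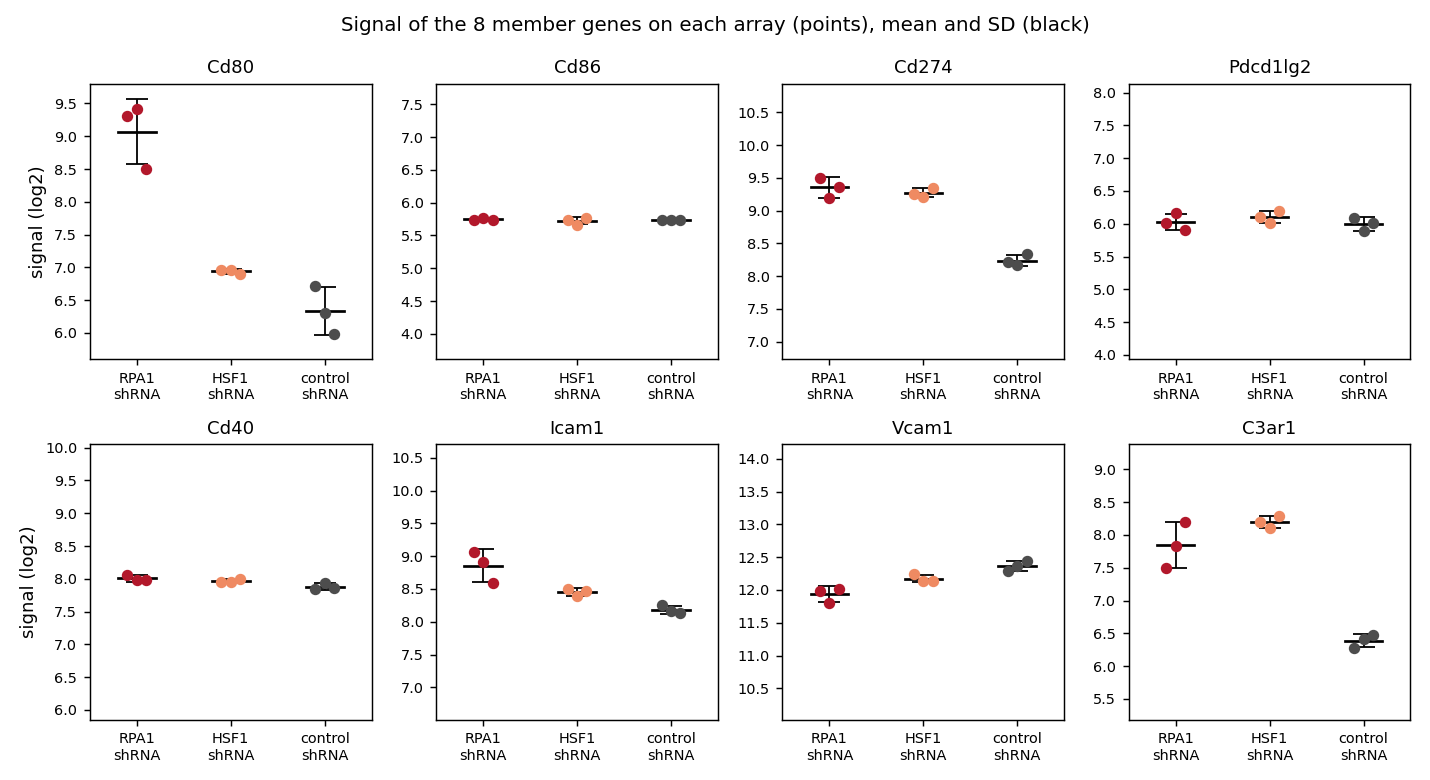
Log2 signal of the 8 genes on each array, 1 panel per gene, with RPA1 shRNA, HSF1 shRNA and control shRNA from left to right. Points are arrays, black bars the mean and SD (n = 3), and each panel spans the same range of log2 units. Cd80 stands between 8.50 and 9.42 in RPA1 shRNA arrays, above all others, while Cd86 and Pdcd1lg2 lie level in the 3 groups.

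Cd80 had the largest difference of the 8 members between RPA1 shRNA and each of the other groups. It read 9.30, 9.42 and 8.50 in RPA1 shRNA arrays, 6.96, 6.96 and 6.90 in HSF1 shRNA arrays and 6.72, 6.30 and 5.99 in control arrays (log2 signal). The 3 groups did not overlap, with RPA1 shRNA highest and control lowest, and the lowest RPA1 shRNA value was array 3. The control mean of 6.34 was dim beside the median gene (8.39), and its height over background is not known. The RPA1 shRNA mean was 6.66-fold the control mean (log2 difference 2.74 ± 0.24, SE from limma, 95% interval 2.21 to 3.26, n = 3 arrays per group) and 4.38-fold the HSF1 shRNA mean (2.13 ± 0.24, 95% interval 1.60 to 2.66). Without RPA1 shRNA array 3 the log2 differences were 3.02 and 2.42. Both values are part of the pattern for which the gene was picked and carry no test. The choice of this probe set over the other rested on the RPA1 shRNA arrays too.

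Under HSF1 shRNA Cd80 had a log2 difference from control of 0.60 ± 0.24 (95% interval 0.07 to 1.13), which did not pass at an adjusted p of 0.12 (limma, Benjamini-Hochberg over all genes, two-sided). All 3 HSF1 shRNA arrays lay above all 3 control arrays, as was so for 23.9% of all genes. The control arrays spread by more than the HSF1 shRNA arrays, with an SD of 0.37 against 0.04 for HSF1 shRNA. The difference was 0.43 without control array 3 and 0.80 without control array 1. It passed without RPA1 shRNA array 3, at an adjusted p of 0.018 by limma, where the shared estimate of the spread was taken over 8 arrays.

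A further Cd80 probe set, left out by the rule of the highest mean, moved less. In control arrays the kept probe set had the lower mean (6.34 against 6.73), and in HSF1 shRNA arrays the means were close (6.94 against 6.87). The kept probe set led in RPA1 shRNA arrays (9.07 against 7.35), so the choice rested on the arrays where Cd80 was high. Probe set 10435712 read 7.41, 7.42 and 7.21 in RPA1 shRNA arrays, 6.97, 6.93 and 6.70 in HSF1 shRNA arrays and 6.84, 6.59 and 6.75 in control arrays. Its RPA1 shRNA arrays too lay above all others, while the HSF1 shRNA and control arrays overlapped. The RPA1 shRNA minus control difference was 0.62 ± 0.09 on the log2 scale for this probe set against 2.74 for probe set 10435704, and the mean over both gave 1.68. For HSF1 shRNA minus control the mean over both was 0.37, against 0.60 for the kept probe set. Under RPA1 shRNA the size of the Cd80 difference depended on the probe set, and its direction did not. Under HSF1 shRNA the interval of the other probe set took in both directions.

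**Figure D2:**
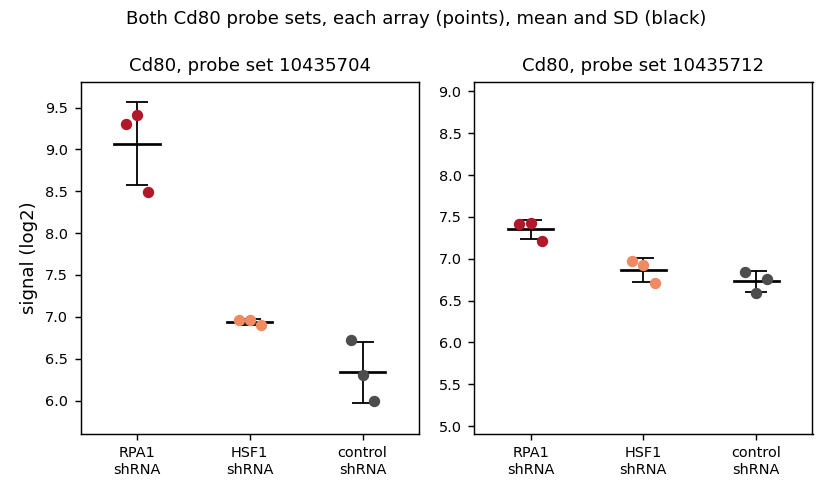
Log2 signal of both Cd80 probe sets on each array (points), with mean and SD in black (n = 3), for RPA1 shRNA, HSF1 shRNA and control shRNA from left to right. RPA1 shRNA arrays are highest in both panels, by 2.74 over control on the left and 0.62 on the right.

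Cd86, the partner of Cd80 as a CD28 and CTLA4 ligand, showed no such difference, at a signal too dim to exclude one (median gene 8.39). It averaged 5.75 ± 0.01 in RPA1 shRNA arrays, 5.72 ± 0.05 in HSF1 shRNA arrays and 5.74 ± 0 in control arrays (log2, SD, n = 3 each). On 6 of the 9 arrays the deposited value was identical, a feature of at least 5 arrays for 1102 of the genes (5.53%), so the SD of this gene says little about its error. The log2 difference was 0.0083 ± 0.04 under RPA1 shRNA (95% interval -0.09 to 0.11, limma adjusted p = 0.92) and -0.020 ± 0.04 under HSF1 shRNA (-0.12 to 0.08, adjusted p = 0.82).

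Cd274 rose under both knockdowns and to a like height. It read 9.50, 9.20 and 9.36 in RPA1 shRNA arrays, 9.26, 9.21 and 9.34 in HSF1 shRNA arrays and 8.21, 8.17 and 8.34 in control arrays (log2). Every knockdown array stood above every control array, and the knockdown groups overlapped. RPA1 shRNA raised it 2.17-fold (1.11 ± 0.08 on the log2 scale, limma adjusted p = 1.7e-05) and HSF1 shRNA 2.05-fold (1.03 ± 0.08, adjusted p = 0.00011). RPA1 shRNA minus HSF1 shRNA gave 0.08 ± 0.08 (95% interval -0.10 to 0.26, adjusted p = 0.53), so a gap of more than 0.26 in favour of RPA1 shRNA lay outside the interval. The 2 comparisons share the control arrays, and the gene was picked with these differences known.

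Pdcd1lg2, which encodes the other PD-1 ligand, did not pass in any comparison. It averaged 6.03 ± 0.13 in RPA1 shRNA arrays and 6.10 ± 0.09 in HSF1 shRNA arrays (log2, SD, n = 3 each), and it read 6.09, 5.88 and 6.01 in control arrays, so that all groups overlapped. Its log2 difference from control was 0.03 ± 0.08 under RPA1 shRNA (limma adjusted p = 0.82) and 0.10 ± 0.08 under HSF1 shRNA (adjusted p = 0.45). Within an array, the Cd274 signal less that of Pdcd1lg2 shifted by 1.08 under RPA1 shRNA and by 0.93 under HSF1 shRNA relative to control, each at an exact permutation p of 0.1 (two-sided, 3 against 3 arrays), the smallest this design allows. In both cases the 3 knockdown arrays lay above the 3 control arrays. The Pdcd1lg2 signal averaged 6.04 over the 9 arrays, under the 8.39 of the median gene. A level gene and a signal too dim to show a change could not be told apart, and the shift is mostly that of Cd274.

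C3ar1 was the member with the largest difference under HSF1 shRNA. It read 7.50, 7.84 and 8.20 in RPA1 shRNA arrays, 8.20, 8.10 and 8.28 in HSF1 shRNA arrays and 6.28, 6.41 and 6.47 in control arrays (log2). All 6 knockdown arrays lay above the control arrays, and RPA1 shRNA array 3, which was low for Cd80, was high for C3ar1. The control mean of 6.39 was dim beside the median gene (8.39), and its height over background is not known. The HSF1 shRNA mean was 3.5-fold the control mean (log2 1.81 ± 0.14), given without a test since the gene stands second among the rises of that comparison. With RPA1 shRNA it rose 2.75-fold (1.46 ± 0.14, limma adjusted p = 8.4e-05), or by 1.28 without array 3. That comparison uses the same control arrays, and C3ar1 had rank 60 among its 3077 rises, so the p-value is no independent test. RPA1 shRNA minus HSF1 shRNA gave -0.35 ± 0.14 (adjusted p = 0.12), and -0.53 without RPA1 shRNA array 3, where it passed (adjusted p = 0.0035); it also passed with array weights. Whether C3ar1 was lower under RPA1 than under HSF1 shRNA therefore turned on 1 array.

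Icam1, the ligand of the leukocyte integrin LFA-1, rose under RPA1 shRNA. It read 9.07, 8.92 and 8.59 in RPA1 shRNA arrays, 8.50, 8.39 and 8.48 in HSF1 shRNA arrays and 8.26, 8.16 and 8.14 in control arrays (log2). The groups did not overlap, in the same order as for Cd80, and again array 3 was the lowest of the RPA1 shRNA group. The rise was 1.59-fold over control (log2 0.67 ± 0.11, limma adjusted p = 0.0011) and stood at 0.81 on the log2 scale without array 3. The HSF1 shRNA difference of 0.27 ± 0.11 (95% interval 0.03 to 0.51) did not pass (adjusted p = 0.12), and it passed without RPA1 shRNA array 3 (adjusted p = 0.01). RPA1 shRNA stood above HSF1 shRNA by 0.40 ± 0.11 (adjusted p = 0.021), and by 0.54 without RPA1 shRNA array 3 (adjusted p = 0.00026). That last call was lost without RPA1 shRNA array 1 or 2 (adjusted p = 0.07 each) or any 1 HSF1 shRNA array (0.051 to 0.077).

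Vcam1, the ligand of the integrin VLA-4, was the only member that fell. It read 11.99, 11.80 and 12.02 in RPA1 shRNA arrays, 12.24, 12.14 and 12.14 in HSF1 shRNA arrays and 12.29, 12.36 and 12.44 in control arrays (log2). RPA1 shRNA was lowest and control highest, with no overlap between groups, the reverse of Icam1. Under RPA1 shRNA it fell by 0.43 on the log2 scale (SE 0.07, limma adjusted p = 0.0014), a 1.34-fold fall, and by 0.47 without array 3. Its HSF1 shRNA difference of -0.19 ± 0.07 did not pass (adjusted p = 0.11). RPA1 shRNA minus HSF1 shRNA was -0.24 ± 0.07 (adjusted p = 0.033), and -0.28 without RPA1 shRNA array 3 (adjusted p = 0.014). This call was lost without control array 2 (0.053), RPA1 shRNA array 1 (0.059) or 2 (0.099), or any 1 HSF1 shRNA array (0.064 to 0.11).

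Cd40 differed little. It read 8.06, 7.98 and 7.98 in RPA1 shRNA arrays, 7.95, 7.96 and 8.00 in HSF1 shRNA arrays and 7.84, 7.94 and 7.87 in control arrays (log2). Knockdown arrays lay above control arrays by a small margin. The log2 difference was 0.12 ± 0.05 under RPA1 shRNA (95% interval 0.01 to 0.23, limma adjusted p = 0.089) and 0.09 ± 0.05 under HSF1 shRNA (-0.02 to 0.20, adjusted p = 0.29), neither of which passed.

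**Figure D3:**
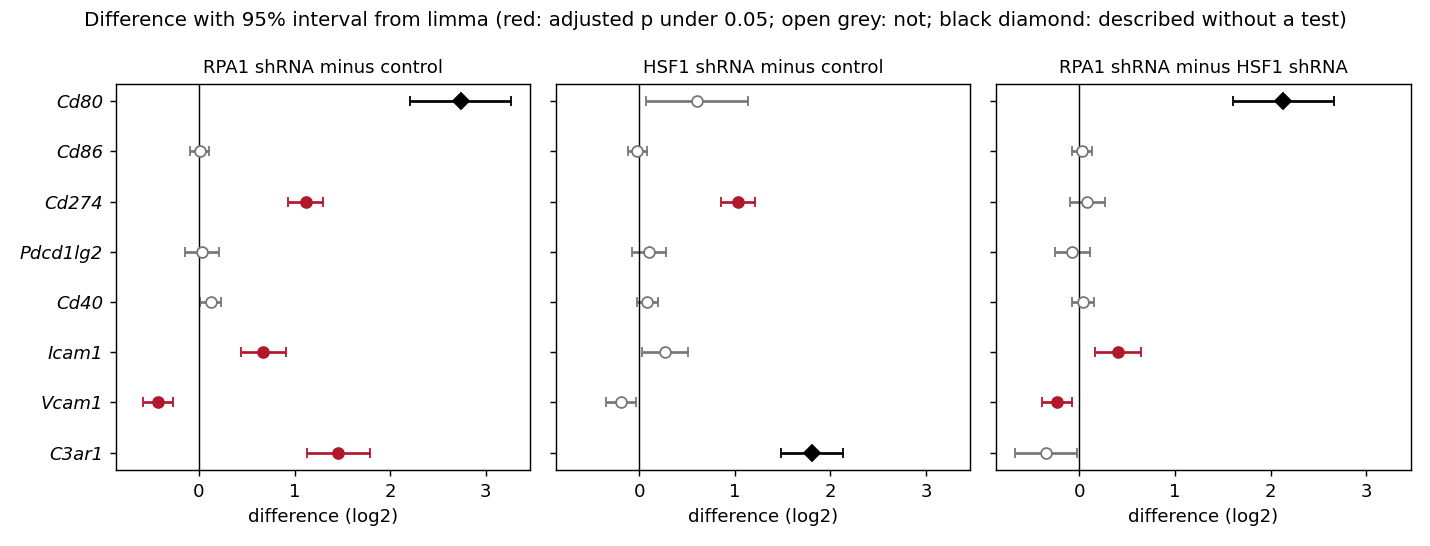
Log2 differences of the 8 genes with 95% intervals from limma, in 3 panels for RPA1 shRNA minus control, HSF1 shRNA minus control and RPA1 shRNA minus HSF1 shRNA. Red points passed an adjusted p of 0.05, open grey points did not, and black diamonds are the differences described without a test. Cd274 and C3ar1 lie above 1 in both panels against control, and Cd80 lies at 2.13 in the panel between knockdowns.

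Counted over the list, 4 of the 8 members were higher and 1 lower under RPA1 shRNA, where 30.1% of all genes were called (15.4% higher and 14.7% lower); without Cd80, 4 of the other 7 were called. Groups did not overlap for 5 members that were higher and 1 that was lower, beside 41% of all genes (21.9% higher and 19.2% lower). Under HSF1 shRNA 2 members were higher and 0 lower (5 members had an unadjusted p under 0.05, limma), beside 16.1% of all genes (9.89% higher and 6.21% lower), and without C3ar1 1 of the other 7 was called. Groups did not overlap for 5 higher members and 1 lower one, beside 37.9% of all genes (23.9% higher and 13.9% lower), and without RPA1 shRNA array 3 the number called was 4, where 23.6% of all genes were called. Between the knockdowns 2 members were higher and 1 lower, beside 24.4% of all genes (9.71% higher and 14.7% lower), and without Cd80 2 of the other 7 were called. The same 3 were those without overlap, beside 34.5% of all genes (14.1% higher and 20.5% lower), and the number called was 1 without any 1 HSF1 shRNA array or RPA1 shRNA array 1 or 2, where 16.2% to 19% of all genes were called. The median log2 difference of the 8 was 0.40 under RPA1 shRNA and 0.19 under HSF1 shRNA, against 0.02 and 0.04 over all genes. Since the members were picked with results in view, these counts describe the list and show nothing particular to it.

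Genes whose signal followed Cd80 over the 9 arrays were ranked by Pearson's r among the 9968 other genes whose SD over the arrays was at least that of the median gene. Cd68, a lysosomal glycoprotein gene used as a macrophage marker, came first (r = 0.998), followed by Phlda3 (0.994), the T-box factor gene Tbx2 (0.993), Mdm2, which encodes the ubiquitin ligase of p53 (0.992), and Shisal2b (0.992). Cd68 read 10.40, 10.61 and 9.84 in RPA1 shRNA arrays, 8.70, 8.72 and 8.70 in HSF1 shRNA arrays and 8.41, 8.20 and 8.08 in control arrays (log2), with RPA1 shRNA array 3 low as for Cd80. Mdm2 read 12.45, 12.49 and 12.09 in RPA1 shRNA arrays, 11.07, 11.03 and 11.09 in HSF1 shRNA arrays and 10.69, 10.59 and 10.56 in control arrays. The most opposed genes were Adam10, which encodes a surface protease (r = -0.993), the transcription factor gene Nfe2l3 (-0.992) and the semaphorin gene Sema3c (-0.991). Among the members Icam1 had r = 0.95, Vcam1 -0.939, Cd274 0.674 and C3ar1 0.455 with Cd80. Members whose SD lay under that of the median gene were Cd40 (0.694), Cd86 (0.25) and Pdcd1lg2 (0.124). These coefficients describe 9 points in 3 groups that share their arrays, and most of each value comes from the gap between groups.

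**Figure D4:**
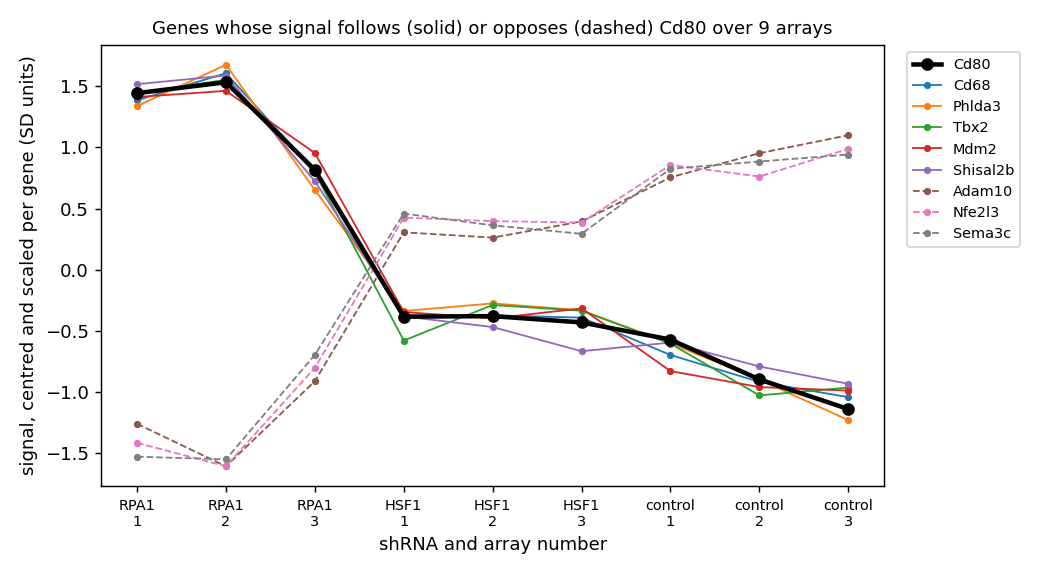
Signal of Cd80 (black) and of the 5 genes most like it (solid) and 3 most opposed to it (dashed) on the 9 arrays, each gene centred and scaled to its own SD; lines only link the values of a gene, and arrays of a group have no order. RPA1 shRNA array 3 lies between the other RPA1 shRNA arrays and the HSF1 shRNA arrays for all 9 genes.

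Markers of macrophages and dendritic cells, the cell types best known for CD80 and C3AR1, were read beside these rises. Of 15 markers 4 were higher under RPA1 shRNA and 0 lower, beside 15.4% of all genes higher and 14.7% lower. At an unadjusted p under 0.05 (limma) 5 were higher and 0 lower. Those called were Cd68 (log2 2.06 ± 0.17), Laptm5 (0.58 ± 0.07), Lyz2 (0.52 ± 0.07) and Csf1r (0.35 ± 0.07). Under HSF1 shRNA Lyz2 (0.50 ± 0.07) and Csf1r (0.27 ± 0.07) were called higher, beside 9.89% of all genes higher and 6.21% lower. The Csf1r call under HSF1 shRNA was lost without control array 1 or 2 or any 1 HSF1 shRNA array (limma adjusted p = 0.071 to 0.11) and with quantile, median and unmoderated settings, and the number of markers called was 1 to 3 with 1 array left out. The summed marker signal lay between 11.24 and 11.60 in RPA1 shRNA arrays, 10.85 and 10.87 in HSF1 shRNA arrays and 10.64 and 10.74 in control arrays (log2 of the sum), and without Cd68 between 10.55 and 10.59 in RPA1 shRNA arrays, 10.48 and 10.51 in HSF1 shRNA arrays and 10.35 and 10.42 in control arrays. Ptprc, which encodes the leukocyte antigen CD45, averaged 6.09 ± 0.08 in RPA1 shRNA arrays, 6.08 ± 0.05 in HSF1 shRNA arrays and 5.96 ± 0.08 in control arrays and did not pass (limma adjusted p = 0.16 for RPA1 shRNA and 0.24 for HSF1 shRNA). Adgre1, which encodes a macrophage surface antigen, averaged 6.08 ± 0.14 in RPA1 shRNA arrays, 6.06 ± 0.01 in HSF1 shRNA arrays and 5.99 ± 0.12 in control arrays (limma adjusted p = 0.47 for RPA1 shRNA and 0.62 for HSF1 shRNA). An array signal has no true 0, so absence could not be read, and the part of such cells in the rises was not tested. Of 8 lymphocyte markers 0 were called in either comparison with control (1 at an unadjusted p under 0.05 in each, limma), though 1 was called under HSF1 shRNA without RPA1 shRNA array 1 and 1 under RPA1 shRNA without control array 3. Of 8 endothelial and 7 epithelial markers 1 each was higher in either comparison. The endothelial calls and the epithelial call under HSF1 shRNA were unstable. The epithelial call under RPA1 shRNA was the keratin gene Krt14. It stayed called in every change of processing where it was tested, with log2 differences of 0.56 to 0.62. With 1 array left out the epithelial number under RPA1 shRNA was 1 or 2. The endothelial call was lost under RPA1 shRNA without control array 2 or 3 or RPA1 shRNA array 1 or 2, and under HSF1 shRNA without control array 2 or 3 or HSF1 shRNA array 2 or 3, where the number ran from 0 to 2. The epithelial call under HSF1 shRNA was lost without any 1 control or HSF1 shRNA array, and 3 were called without RPA1 shRNA array 1 or 3; under RPA1 shRNA 2 were called without HSF1 shRNA array 1.

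Other genes of the same families were read from lists that left out the 8 members. The lists were chosen with results of these data known. Genes named from them, here and below, come from the 3 largest called rises and falls of each list against control. Their passing p-values follow from that choice and are no independent support. Every list count stands beside the shares over all genes. These were 15.4% higher and 14.7% lower under RPA1 shRNA, and 9.89% higher and 6.21% lower under HSF1 shRNA. Of 11 further ligands of the B7 kind and checkpoint partners, 2 rose and 4 fell under RPA1 shRNA (median log2 difference -0.19), and 1 rose and 1 fell under HSF1 shRNA (0.05). Pvr, the poliovirus receptor that binds TIGIT and DNAM-1 on lymphocytes, read 10.39, 10.43 and 10.48 in RPA1 shRNA arrays, 10.28, 10.16 and 10.23 in HSF1 shRNA arrays and 9.35, 9.38 and 9.35 in control arrays (log2). It rose by 1.07 ± 0.05 under RPA1 shRNA (limma adjusted p = 2.1e-06) and by 0.87 ± 0.05 under HSF1 shRNA (3.5e-05), both with no overlap with control. Cd47, the "do not eat me" ligand of SIRPA, fell under RPA1 shRNA (-0.77 ± 0.09, adjusted p = 0.00019), as did Cd200, a further inhibitory ligand of myeloid cells (-1.06 ± 0.14, 0.00044). Cd200 was also the 1 fall under HSF1 shRNA (-0.62 ± 0.14, limma adjusted p = 0.016), which was lost without any 1 control array or HSF1 shRNA array 2 or 3 (0.051 to 0.065). Without RPA1 shRNA array 3 the HSF1 shRNA falls numbered 2, and without RPA1 shRNA array 2 the rises numbered 2. Cd47 had a difference of -0.17 ± 0.09 under HSF1 shRNA (0.23). Of the 2 NKG2D ligand genes measured, Raet1d rose under RPA1 shRNA (0.29 ± 0.05, 0.0019) and under HSF1 shRNA (0.79 ± 0.05, 6.3e-05), though near-identical Raet1 genes may share its probes.

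Among TNF superfamily ligands and receptors, of 31 genes 12 rose and 2 fell under RPA1 shRNA (median 0.08) and 6 rose and 1 fell under HSF1 shRNA (0.12). Over all genes 15.4% rose and 14.7% fell under RPA1 shRNA, and 9.89% rose and 6.21% fell under HSF1 shRNA. Tnfsf18, the ligand of the T cell receptor GITR, read 8.38, 8.56 and 8.89 in RPA1 shRNA arrays, 7.90, 7.79 and 7.62 in HSF1 shRNA arrays and 6.46, 6.72 and 6.83 in control arrays (log2), 3 groups without overlap. Its rise was 3.82-fold under RPA1 shRNA (limma adjusted p = 1.6e-05) and 2.14-fold under HSF1 shRNA (0.00096). Tnfrsf18, which encodes GITR itself, read 9.19, 9.50 and 8.28 in RPA1 shRNA arrays, 7.42, 7.37 and 7.26 in HSF1 shRNA arrays and 7.22, 7.18 and 7.26 in control arrays. All RPA1 shRNA arrays lay above the others, with array 3 the lowest of them, and rose by 1.77 ± 0.24 (adjusted p = 0.00051). The ectodysplasin receptor gene Eda2r rose by 2.04 ± 0.11 under RPA1 shRNA (4.7e-06) and by 0.52 ± 0.11 under HSF1 shRNA (0.013), where the call was lost without control array 1 or 3 or HSF1 shRNA array 1. Under RPA1 shRNA Tnfrsf1a (-0.35 ± 0.06, 0.0015) and Tnfrsf1b (-0.30 ± 0.06, 0.0034), which encode the TNF receptors, fell, and under HSF1 shRNA Tnfrsf1b fell by 0.62 (SE 0.06, 0.00022).

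Leukocyte adhesion genes moved both ways, beside 30.1% of all genes called under RPA1 shRNA and 16.1% under HSF1 shRNA. Of 19 genes 6 rose and 5 fell under RPA1 shRNA (median -0.01) and 2 rose and 3 fell under HSF1 shRNA (0.02). Podxl, which encodes the sialomucin podocalyxin, fell under RPA1 shRNA (-2.42 ± 0.13, limma adjusted p = 3.8e-06) and under HSF1 shRNA (-1.23 ± 0.13, 0.00036). F11r, a junctional adhesion molecule gene, fell by 0.84 (SE 0.10, 0.00023) under RPA1 shRNA and by 1.01 (SE 0.10, 0.0003) under HSF1 shRNA. Mcam, which encodes CD146, rose under RPA1 shRNA (0.99 ± 0.10, 7.7e-05) and had a difference of 0.29 ± 0.10 under HSF1 shRNA (0.07). Without RPA1 shRNA array 3 the HSF1 shRNA counts were 4 higher and 5 lower, and without control array 2 or 3 or HSF1 shRNA array 2 or 3 1 was higher.

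Complement genes other than C3ar1 moved both ways, beside 30.1% of all genes called under RPA1 shRNA and 16.1% under HSF1 shRNA. Of 27 genes 4 rose and 6 fell under RPA1 shRNA (median -0.03) and 2 rose and 3 fell under HSF1 shRNA (0.01). The protease gene C1s1 read 7.91, 7.75 and 7.31 in RPA1 shRNA arrays, 8.72, 8.72 and 8.49 in HSF1 shRNA arrays and 9.52, 9.66 and 9.49 in control arrays (log2), again without overlap. It fell 3.72-fold under RPA1 shRNA (limma adjusted p = 1.6e-05) and 1.88-fold under HSF1 shRNA (0.0023). Its partner protease gene C1ra fell by 1.12 (SE 0.10, 3.9e-05) under RPA1 shRNA and by 0.55 (SE 0.10, 0.0051) under HSF1 shRNA. Serping1, which encodes the inhibitor of these proteases, fell by 1.64 (SE 0.07, 1.6e-06) under RPA1 shRNA and by 0.37 (SE 0.07, 0.0069) under HSF1 shRNA. Cd55, which encodes a surface inhibitor of complement, rose under RPA1 shRNA (1.34 ± 0.11, 3.2e-05) and had a difference of -0.10 ± 0.11 under HSF1 shRNA (0.62). Its control mean was dim, at 5.28. The 2 rises under HSF1 shRNA, Cr1l and Masp1, were both lost without any 1 control array or HSF1 shRNA array 2.

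Genes of CD40 and NF-kB signalling and of interferon signalling were called in both directions, and a link to the members was not tested. Both lists stand beside 15.4% of all genes higher and 14.7% lower under RPA1 shRNA. Under HSF1 shRNA the shares were 9.89% higher and 6.21% lower. Of 21 genes of CD40 and NF-kB signalling 6 rose and 5 fell under RPA1 shRNA (median 0.12) and 7 rose and 1 fell under HSF1 shRNA (0.09). Tnfaip3, a feedback inhibitor of NF-kB, rose under RPA1 shRNA (1.12 ± 0.05, limma adjusted p = 1.7e-06) and under HSF1 shRNA (0.40 ± 0.05, 0.00081). Rela, which encodes an NF-kB subunit, rose under RPA1 shRNA (0.52 ± 0.06, 0.00018) and under HSF1 shRNA (0.27 ± 0.06, 0.013, lost without HSF1 shRNA array 3). Birc2, a further gene of this list, fell under RPA1 shRNA (-0.41 ± 0.07, 0.0017) and under HSF1 shRNA (-0.33 ± 0.07, 0.011, lost without control array 3). Without control array 1 or 3 the HSF1 shRNA rises numbered 3, and without HSF1 shRNA array 1 or 3 they numbered 4; the RPA1 shRNA falls numbered 2 or 3 without any 1 control array or RPA1 shRNA array 1. Of 17 interferon signal genes 4 rose and 5 fell under RPA1 shRNA (median 0.10) and 7 rose and 1 fell under HSF1 shRNA (0.17). Stat2 (0.76 ± 0.09, 0.00022), Irf7 (1.05 ± 0.14, 0.00053) and Irf9 (0.61 ± 0.09, 0.00057), factors of the type I interferon response, rose under RPA1 shRNA. The same 3 genes rose under HSF1 shRNA, Stat2 by 0.77 ± 0.09 (limma adjusted p = 0.00064), Irf7 by 0.77 ± 0.14 (0.0069) and Irf9 by 0.51 ± 0.09 (0.004). The receptor gene Ifnar2 fell under RPA1 shRNA (-0.73 ± 0.06, 4.3e-05) and had a difference of -0.17 ± 0.06 under HSF1 shRNA (0.11). The 1 fall under HSF1 shRNA, the interferon regulatory factor gene Irf2 (-0.30 ± 0.08, 0.027), was lost without any 1 control array or HSF1 shRNA array 2 or 3, and 2 falls were called without RPA1 shRNA array 3. The RPA1 shRNA falls numbered 3 without control array 1 or 2 or RPA1 shRNA array 1 or 2.

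Counter-receptors on leukocytes, such as Cd28 and integrin genes, stood beside 15.4% of all genes called higher under RPA1 shRNA and 9.89% under HSF1 shRNA. They gave 4 small rises among 15 genes under RPA1 shRNA and 1 under HSF1 shRNA. Falls numbered 0 in either (also 0 at an unadjusted p under 0.05, limma). The RPA1 shRNA rises, the largest 0.35 ± 0.10 for Itga4 (limma adjusted p = 0.025), numbered 1 without control array 2, control array 3 or RPA1 shRNA array 2, and 2 without control array 1 or RPA1 shRNA array 1. Without control array 1 the HSF1 shRNA rises numbered 2.

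**Figure D5:**
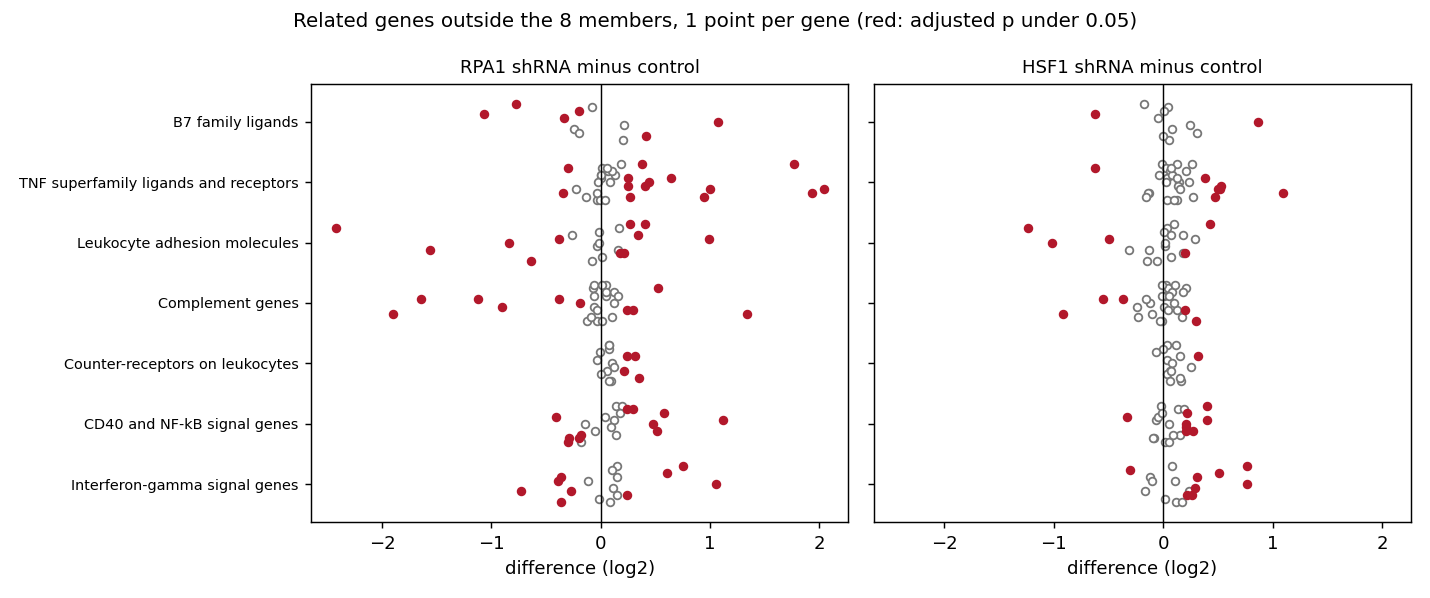
Log2 difference from control of each gene in 7 lists of related genes that leave out the 8 members, for RPA1 shRNA (left) and HSF1 shRNA (right). Red points passed an adjusted p of 0.05 and open points did not; the vertical spread within a list has no meaning. The lowest point on the left is Podxl at -2.42 and the highest Eda2r at 2.04.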

How the data were processed

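Array signals came from Affymetrix GeneChip Mouse Gene ST arrays, 9 in all, each labelled from 200 ng of total RNA. The deposited values are log2 signals, 1 per probe set and array, made with RMA in Partek 6.5 per the submitters' processing notes; the scale is not stated and log2 was inferred from the range of 1.14 to 14.97. Array medians lay between 7.72 and 7.81. The values were used as deposited, with no filter on dim genes.

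Of 35557 rows, 21789 had a single symbol, 1621 several and 12147 none in the annotation given for the array. Per gene the row with the highest mean was kept, which left 19938 genes. R 4.3.3 and limma 3.58.1 fitted 1 mean per group to all 9 arrays (lmFit, eBayes), with Benjamini-Hochberg adjustment over all genes of each contrast and calls at an adjusted p under 0.05. The procedure was tested on simulated data.

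The members and lists were chosen with earlier results of these data known. A member among the 10 largest called rises or falls of a contrast got no test there. Named genes beyond the members were the 5 most like and 3 most unlike Cd80, and examples from the 3 largest called rises and falls of each list. Lists covered B7 ligands, TNF superfamily, adhesion, complement, counter-receptors, CD40 and NF-kB signalling, interferon signalling and NKG2D ligands, with markers of macrophages or dendritic cells, lymphocytes, endothelium, epithelium and fibroblasts. Alternatives changed scaling, filter, row choice, variance model, array weights, samples and a replicate block. The number of arrays limits the precision, and how far a signal lay over background is not known here. Promoter windows came from RefSeq.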

Additional observations from a re-analysis of the deposited data

Results flagged for a closer look

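The Cd80 probe set that the choice of rows left out stood above its control level under RPA1 shRNA, by 0.62 on the log2 scale, and was left out of the table of 1 probe set per gene that the counts of called genes rest on. Its 3 RPA1 shRNA arrays lay between 7.21 and 7.42 and its 3 control arrays between 6.59 and 6.84. Which part of the Cd80 transcript each probe set reads was not analysed here.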

How the results depend on the processing

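Members called under RPA1 shRNA numbered 5, and 3 among genes above the median gene, where 3 members could be tested and 51.5% of genes were called; leaving out 1 array gave 5 to 5. Under HSF1 shRNA 2 were called, against 1 in that filter (31.9% of genes called), 5 with array weights (26.6%), 5 with only the 6 arrays compared (22.7%) and 2 to 4 with 1 array left out. Between the knockdowns 3 were called, against 1 in the unmoderated test (17.6%), 1 with only the 6 arrays compared (16.5%) and 1 to 4 with 1 array left out. Cd274 kept its calls against control in every alternative run, as did Icam1, Vcam1 and, where its signal passed the filter, C3ar1 under RPA1 shRNA. Under HSF1 shRNA Cd80 passed with array weights (adjusted p = 0.017), with only the 6 arrays compared (0.036) and with the replicate block (0.0498), where its log2 difference stayed 0.60. The replicate numbers showed no pairing across all groups. Deviations of same-numbered arrays correlated between -0.16 and 0.09, and those of differently numbered arrays between -0.16 and 0.16. For control against RPA1 shRNA the same-numbered pairs (0.07 to 0.09) lay above all the others (-0.12 to 0.03). For the other 2 pairs of groups this was not so. The block changed the call of no member but Cd80, with counts of 3, 5 and 3 for HSF1 shRNA, RPA1 shRNA and the contrast between them. Vcam1 passed under HSF1 shRNA with cyclic loess (0.044), array weights (0.019) and only 6 arrays (0.045), and its call between knockdowns was lost with quantile (0.0504), median (0.077) and loess scaling (0.054). Icam1 passed under HSF1 shRNA with array weights (0.023) and only 6 arrays (0.0096), and Cd40 under RPA1 shRNA with array weights (0.0075). Signs turned for Cd86 and Pdcd1lg2, which were never called: Cd86 under RPA1 shRNA with quantile (-0.022) and loess scaling (-0.012), under HSF1 shRNA (0.0097) and between knockdowns (-0.0014) without HSF1 shRNA array 2, and Pdcd1lg2 under RPA1 shRNA without control array 2 (-0.024) or RPA1 shRNA array 2 (-0.035). With 1 array left out these spanned -0.040 to 0.0097 and -0.0014 to 0.048 for Cd86, and -0.035 to 0.089 for Pdcd1lg2. The cause of these shifts was not tested. Alternatives for the lists and for genes that are no members were added after the data were seen.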
